A study of Homo sapiens with 27 samples.

Results

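The transcriptome of 92.1 uveal melanoma (UM) cells after 7 days in the FAK inhibitor VS-4718 (FAKi) was compared with that of cells kept in DMSO for the same time. 92.1 is an established human UM cell line that carries a *GNAQ* mutation, and FAKi and DMSO cells shared this background. FAKi was given at 100 nM, and drug and medium were renewed every 72 h in both arms. The comparison rests on 6 of the 27 RNA-seq libraries of the series, 3 FAKi day 7 and 3 DMSO day 7, chosen by treatment and day in the labels. The other 21 libraries are DMSO at day 0 and both treatments at days 3, 14 and 21. All libraries came from a single cell line. The methods describe triplicate plating as well as repeats of the whole experiment, and the labels do not say which of these a replicate number counts. The p-values therefore measure only the spread between these libraries, which may be technical. Of 61533 genes that were counted, 19982 are protein-coding, and 14313 of these had at least 20 counts over the 6 libraries and were tested.

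FAK, encoded by *PTK2*, is a tyrosine kinase that is recruited to integrin adhesions, where it phosphorylates adaptor proteins and activates SRC family kinases. In UM, mutant Gαq is known to signal through phospholipase C and protein kinase C to the RAS-ERK pathway, and through the exchange factor TRIO to FAK and the coactivator YAP. UM cells descend from melanocytes and keep much of the melanocyte program, including the transcription factor MITF and the enzymes and transporters of the melanosome.

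The 3 FAKi day 7 libraries did not form a single group. Distances between libraries were taken as the root mean square difference of log2 CPM (counts scaled to library size) over 12144 genes. Replicates 2 and 3 were 0.342 apart. The library labelled FAKi day 7 replicate 1 was 0.587 and 0.629 from them, but only 0.144, 0.234 and 0.317 from FAKi day 14 replicates 1, 2 and 3. Its median squared count difference from FAKi day 14 replicate 1 was 1.52 times that of sampling noise, against at least 2.38 times for every pair of replicates within a group, so these libraries were close but not identical. Replicate 2 was 0.251 to 0.311 from the DMSO day 7 libraries, nearer than to replicate 3. The plot of distances places replicate 1 apart from both others. The comparison was therefore made with 6 libraries and again with 5, without replicate 1.

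**Figure D1:**
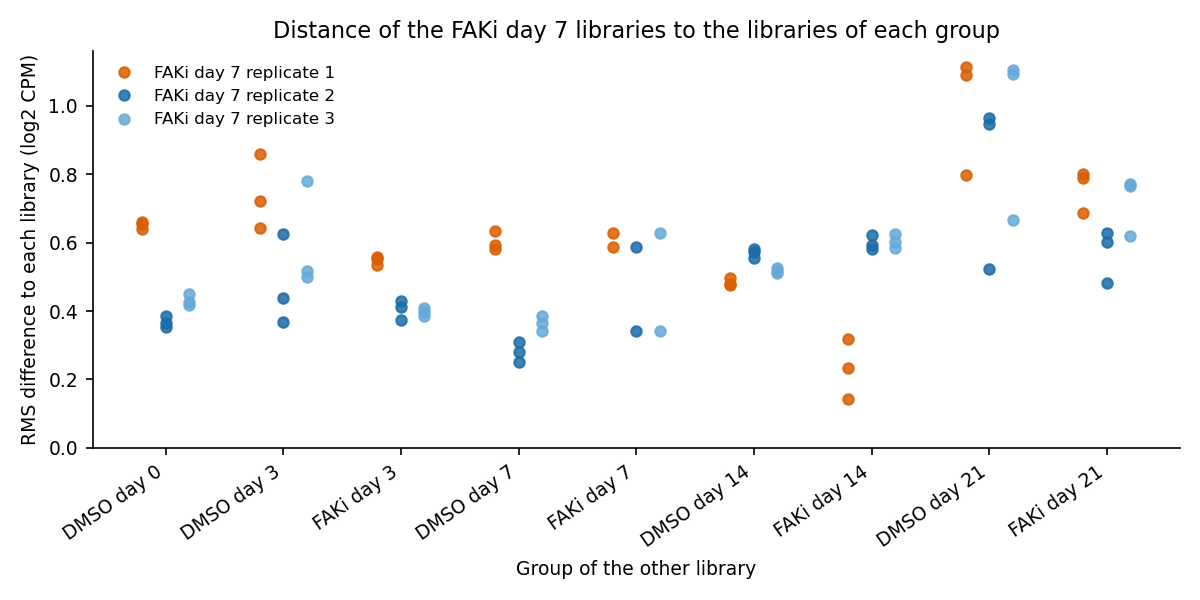
Root mean square difference in log2 CPM (y axis) between each FAKi day 7 library and every library of each group (x axis). Each point is a pair of libraries, coloured by FAKi day 7 replicate. Replicate 1 lies lowest at FAKi day 14 (0.144 to 0.317), whereas replicate 2 lies lowest at DMSO day 7.

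Total counts at day 7 ran from 17468528 to 31262413 per library. Genes of the mitochondrial chromosome took 20.2 to 20.7% of counts in FAKi and 17.0 to 19.3% in DMSO. The 7 melanocyte markers (*MITF*, *SOX10*, *PMEL*, *MLANA*, *TYR*, *TYRP1*, *DCT*) were all detected and summed to 12122 to 14252 CPM in FAKi and 11024 to 11449 CPM in DMSO. The 8 immune markers summed to 41.4 to 81.2 CPM in FAKi and 87.8 to 100.4 CPM in DMSO, nearly all of it *CD68*, with *ITGAM* and *MS4A1* among those at 0. The 7 epithelial markers summed to 6.23 to 21.1 and 24.97 to 29.8 CPM, with *KRT5* at 0. The 8 fibroblast markers summed to 6.88 to 12.96 and 7.24 to 11.2 CPM, with *COL1A2* and *FAP* at 0, and the 6 endothelial markers to 0.522 to 1.62 and 0.197 to 0.283 CPM. The part of these differences in the results below was not tested. In such bulk libraries, fewer cells with a transcript and less of it per cell cannot be told apart.

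With all 6 libraries, 6 protein-coding genes were lower in FAKi and 0 higher. A gene was called where the log2 fold change was over 1 in size and the adjusted p from edgeR (quasi-likelihood F test, Benjamini-Hochberg) was at most 0.05. The 6 genes were 0.0419% of those tested. At an unadjusted p under 0.05, 538 genes were higher (3.76%) and 686 lower (4.79%), and DESeq2 called 24 higher and 39 lower. The 5 described here are *NRCAM*, *HLX*, *ANXA1*, *SFRP1* and a model without a symbol, ENSG00000286231. In all 6 the FAKi and DMSO libraries did not overlap, which was also so in 17.4% of all genes tested.

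*HLX* (ENSG00000136630.13, hg38 chromosome 1 from 220879431 to 220885056, plus strand) encodes a homeobox transcription factor. Its expression was 172, 172 and 158 CPM in DMSO and 43.4, 59.4 and 46.0 CPM in FAKi replicates 1 to 3. All FAKi libraries lay below all DMSO libraries, and the log2 fold change was -1.75 ± 0.15 (SE, adjusted p = 0.0128, edgeR). Of the exon bases of ENSG00000286231, 100% lie in exons of *HLX* or its neighbour *MTARC1* on the same strand. Its log2 fold change of -1.58 ± 0.15 is therefore not independent of *HLX*.

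*NRCAM* (ENSG00000091129.22, chromosome 7 from 108147626 to 108456397, minus strand) encodes a neuronal cell adhesion molecule of the L1 family. It was at 8.21, 9.25 and 9.08 CPM in DMSO and at 2.31, 1.81 and 2.75 CPM in FAKi. The groups were far apart and the replicates close, with a log2 fold change of -1.96 ± 0.21 (adjusted p = 0.0235, edgeR).

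*ANXA1* (ENSG00000135046.14, chromosome 9 from 73157654 to 73170393, plus strand) encodes the phospholipid-binding protein annexin A1. It was at 39.7, 38.9 and 37.3 CPM in DMSO and at 16.0, 14.5 and 15.2 CPM in FAKi, so that replicate 1 did not stand apart here. Its log2 fold change was -1.34 ± 0.13 (adjusted p = 0.0128, edgeR). *SFRP1*, a secreted inhibitor of WNT ligands, was at 97.5, 79.2 and 82.2 CPM in DMSO and at 35.1, 40.1 and 39.2 CPM in FAKi. All FAKi libraries lay below DMSO, and the log2 fold change was -1.18 ± 0.14 (adjusted p = 0.0335, edgeR). All 6 were called without FAKi replicate 1. *HLX* alone was called without FAKi replicate 2, and 0 genes were called without FAKi replicate 3 or any of the 3 DMSO libraries.

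Without FAKi replicate 1, 75 of 14178 protein-coding genes were called (0.529%), 22 higher (0.155%) and 53 lower (0.374%), and these held all 6 genes called with 6 libraries. At an unadjusted p under 0.05, 816 genes were higher (5.76%) and 1253 lower (8.84%). The left-out library lay beyond all DMSO libraries on the same side for 43 of the 53 lower genes and for 13 of the 22 higher genes, and on the opposite side for 9 and 5. These genes were called against the same DMSO libraries, and the share over all genes was not computed. The counts are therefore a description and no test. In all 75 the 2 FAKi and 3 DMSO libraries fitted did not overlap, which was also so in 32.0% of all genes tested. Over all gene types 248 genes were called, of which 122 were pseudogenes. The setting for strand and for reads with several alignments is not named in the sources used here. Shared sequence was checked for the 75 protein-coding genes alone, of which 73 were found in the annotation. Of the 73, 7 share over 20% of their 50-base stretches with transcripts of other genes. Another 4 overlap exons on the opposite strand over more than 20% of their length. These values cannot be assigned to 1 gene with certainty.

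**Figure D2:**
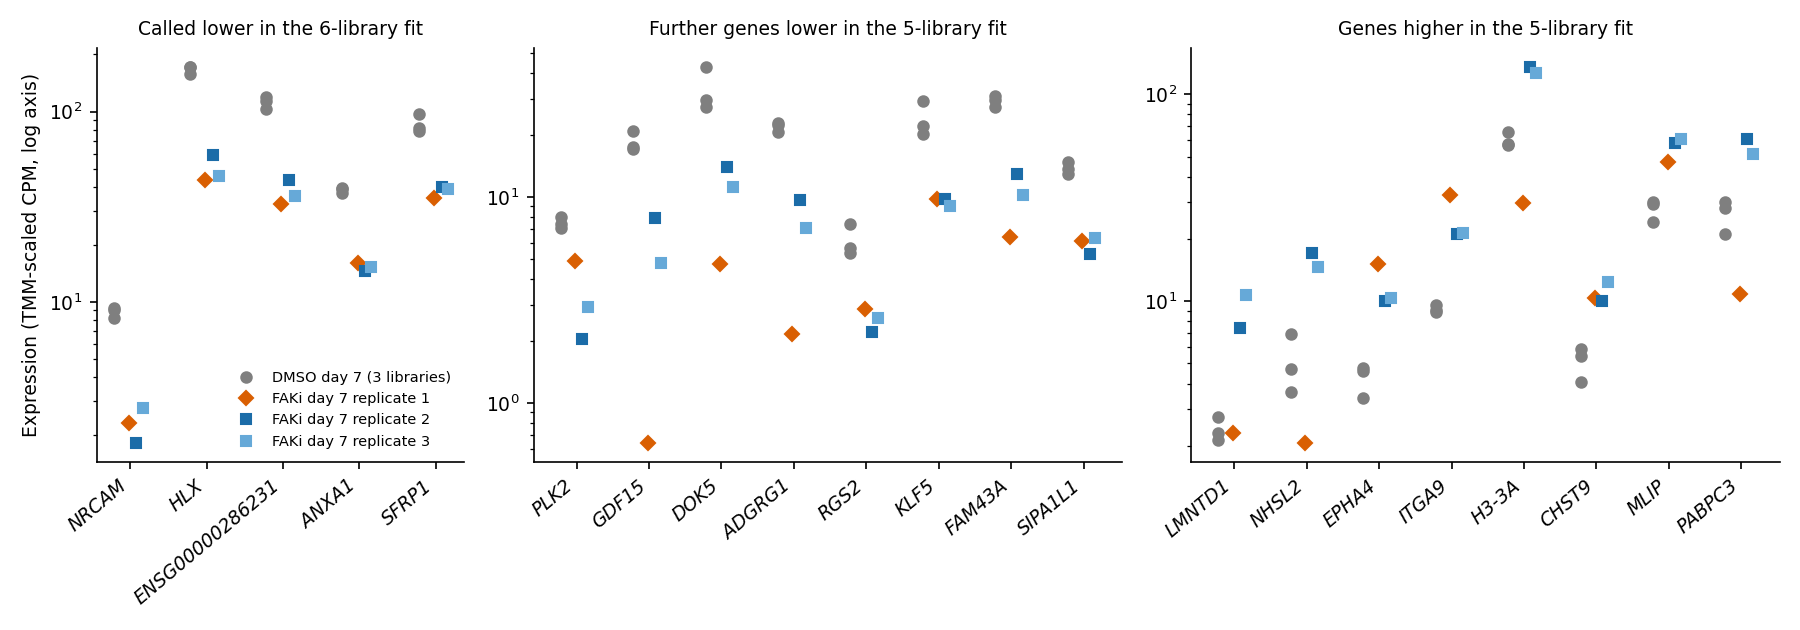
Expression (TMM-scaled CPM, log y axis) in each day 7 library of 5 genes called with 6 libraries and of the genes with the largest changes called without FAKi replicate 1. Grey points are DMSO, diamonds FAKi replicate 1, squares FAKi replicates 2 and 3. In *H3-3A*, *PABPC3* and *NHSL2* replicate 1 lies below the DMSO libraries, whereas replicates 2 and 3 lie above them.

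Among further lowered genes with at least 5 CPM were several with links to receptor signaling. *RGS2* encodes a regulator of G-protein signaling that acts on Gαq. It was at 7.39, 5.36 and 5.65 CPM in DMSO and at 2.85, 2.21 and 2.58 CPM in FAKi. All FAKi libraries were below DMSO, and the log2 fold change was -1.37 ± 0.23 with 5 libraries (adjusted p = 0.00225, edgeR). *ADGRG1*, an adhesion G-protein coupled receptor, was at 22.98, 22.3 and 20.7 CPM in DMSO and at 2.16, 9.64 and 7.05 CPM in FAKi, with replicate 1 the lowest. Its log2 fold change was -1.38 ± 0.16. *DOK5*, an adaptor of receptor tyrosine kinases, was at 43.0, 27.4 and 29.6 CPM in DMSO and at 4.71, 13.9 and 11.2 CPM in FAKi, with a log2 fold change of -1.40 ± 0.19.

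*KLF5*, a zinc finger transcription factor, was at 29.2, 22.1 and 20.3 CPM in DMSO and at 9.82, 9.81 and 9.06 CPM in FAKi. The 3 FAKi values were nearly equal, and the log2 fold change was -1.33 ± 0.17 with 5 libraries (adjusted p = 0.00027, edgeR) and -1.32 ± 0.17 with 6 (adjusted p = 0.0758). *SIPA1L1*, a RAP GTPase-activating protein, behaved likewise, with log2 fold changes of -1.26 ± 0.16 and -1.22 ± 0.16. Exons on the opposite strand cover 21.8% of its exon bases. *FAM43A* fell by 1.32 on the log2 scale and *PLK2*, a polo-like kinase, by 1.61. *GDF15*, a secreted stress-induced cytokine and p53 target, was at 17.1, 17.6 and 20.9 CPM in DMSO and at 0.638, 7.88 and 4.76 CPM in FAKi, with a log2 fold change of -1.53 ± 0.19. The 3 FAKi libraries were below DMSO, replicate 1 by far the most.

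Only 8 of the 22 higher genes reached 5 CPM and showed groups without overlap. *ITGA9*, the integrin α9 subunit, was at 9.57, 9.10 and 8.86 CPM in DMSO and at 32.6, 21.1 and 21.4 CPM in FAKi, with a log2 fold change of 1.21 ± 0.14 without replicate 1 (adjusted p = 0.000106, edgeR). *EPHA4*, an Eph receptor tyrosine kinase, was at 4.77, 3.39 and 4.59 CPM in DMSO and at 15.1, 10.0 and 10.3 CPM in FAKi, with a log2 fold change of 1.25 ± 0.18. In both genes the FAKi libraries all lay above DMSO, and replicate 1 was the highest. *MLIP*, a lamin-interacting protein gene of muscle, and *CHST9*, a sulfotransferase gene, had log2 fold changes of 1.09 ± 0.13 and 1.12 ± 0.18, again with replicate 1 above DMSO. *LMNTD1*, *NHSL2*, *H3-3A* and *PABPC3* were called without replicate 1, but in that library they were at 2.31, 2.06, 29.8 and 10.8 CPM, within or below the DMSO range. Of the 50-base stretches of *PABPC3* 66.5% occur in other genes' transcripts, and of those of *H3-3A* 18.9%.

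Transcripts of the targeted kinase and of the oncogene were not called in either fit. *PTK2* was at 154, 149 and 146 CPM in DMSO and at 122, 153 and 156 CPM in FAKi, with log2 fold changes of -0.06 ± 0.14 (6 libraries) and 0.05 ± 0.10 (5 libraries). The inhibitor acts on the protein, so the transcript is no check of the treatment. *GNAQ*, the mutated oncogene, was at 45.0, 44.6 and 45.1 CPM in DMSO and at 31.4, 44.5 and 54.8 CPM in FAKi, with a log2 fold change of -0.04 ± 0.19 (6 libraries). For both genes the FAKi values straddled the DMSO values.

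ERK output and feedback genes, which report activity of the RAS-ERK pathway, were lower. Of 15 members 8 were lower at an unadjusted p under 0.05 in each fit and 0 were higher. At that p 4.79% of all genes tested were lower with 6 libraries and 8.84% with 5. The median log2 fold change was -0.53 with 6 libraries and -0.41 with 5, against 0.00191 and -0.0147 over all protein-coding genes. At an adjusted p of 0.05 with any fold, 4 were lower with 5 libraries, against 174 of 14178 genes in all (1.23%). These were *ETV4*, *SPRY4*, *DUSP6* and *SPRED1*. *DUSP6*, the phosphatase that dephosphorylates ERK, was at 75.2, 62.6 and 64.01 CPM in DMSO and at 21.5, 37.5 and 41.2 CPM in FAKi (log2 fold change -0.77 ± 0.13, adjusted p = 0.00206, edgeR with 5 libraries). *SPRY4*, a feedback inhibitor of receptor signaling, was at 166, 143 and 158 CPM in DMSO and at 44.4, 91.0 and 85.3 CPM in FAKi (-0.82 ± 0.11). *ETV4*, an ETS factor, was at 120, 127 and 123 CPM in DMSO and at 10.2, 69.9 and 52.1 CPM in FAKi, and alone was called (-1.01 ± 0.13). In all 3 genes the FAKi libraries were below DMSO, and replicate 1 was the lowest. With all 6 libraries the adjusted p of these genes were 0.242 to 0.463. Exons on the opposite strand cover 28.6% of the exon bases of *DUSP6*.

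The AP-1 and immediate early genes, which serum and mitogens induce within minutes through ERK and the serum response factor SRF, were lower too. Of 20 members 12 were lower and 1 higher at an unadjusted p under 0.05 with 5 libraries (8 and 1 with 6). Over all genes tested 8.84% were lower and 5.76% higher at that p with 5 libraries, and 4.79% and 3.76% with 6. The median log2 fold change of the list was -0.42 with 5 libraries. *EGR1*, *EGR3* and *FOSL1* were called lower, as were 0.374% of all genes tested. *EGR3* was at 2.29, 1.87 and 1.82 CPM in DMSO and at 1.13, 0.522 and 0.459 CPM in FAKi (log2 fold change -2.00 ± 0.35, adjusted p = 0.00378, edgeR). *NR4A1*, an orphan nuclear receptor, was at 286, 270 and 273 CPM in DMSO and at 121, 181 and 118 CPM in FAKi, with all FAKi libraries below DMSO (-0.88 ± 0.14). *KLF6* was the gene that was higher, with a log2 fold change of 0.47. *EGR1* depended on the library, at 24.9, 15.9 and 17.7 CPM in DMSO and at 21.9, 10.4 and 8.26 CPM in FAKi. Replicate 1 lay within DMSO and replicates 2 and 3 below it, so the log2 fold change was -0.53 ± 0.34 with 6 libraries and -1.05 ± 0.19 with 5.

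Promoter sequence was examined where members of a list shared a direction. SRF binds the CArG box, searched as CC, 6 bases of A or T, then GG on both strands in the 250 bases before each RefSeq start (GRCh38.p14). It occurred in 1 of 16 immediate early promoters, that of *EGR1*, and in 1.02% of 11120 promoters of tested genes. The stretch is shown with its pair of CArG boxes in capitals (chr5:138465329-138465478, plus strand).
EGR1: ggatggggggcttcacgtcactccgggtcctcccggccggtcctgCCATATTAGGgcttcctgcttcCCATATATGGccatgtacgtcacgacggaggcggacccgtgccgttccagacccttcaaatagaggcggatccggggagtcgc

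Genes of melanosomes and pigment synthesis were higher in FAKi, and passed the adjusted test without replicate 1. Of 19 members tested 10 were higher and 0 lower at an unadjusted p under 0.05 with 6 libraries, and 15 and 0 with 5. At that p 3.76% of all genes tested were higher with 6 libraries and 5.76% with 5. The median log2 fold change was 0.41 in each fit. At an adjusted p of 0.05 with any fold, 9 were higher with 5 libraries, against 141 of 14178 genes in all (0.994%). All 9 were below the fold threshold of a call. *OCA2*, a melanosomal membrane protein, was at 80.1, 87.2 and 93.7 CPM in DMSO and at 118, 164 and 157 CPM in FAKi (log2 fold change 0.89 ± 0.11, adjusted p = 0.000214, edgeR). *TRPM1*, a melanocyte cation channel, was at 22.98, 20.5 and 22.0 CPM in DMSO and at 49.5, 40.1 and 40.8 CPM in FAKi (0.89 ± 0.12). *RAB27A* and *MYO5A*, which tether and carry melanosomes along actin, had log2 fold changes of 0.81 ± 0.12 and 0.74 ± 0.11. In these 4 genes all FAKi libraries were above all DMSO libraries. With all 6 libraries 0 of the 19 were below an adjusted p of 0.05, and those of these 4 genes were 0.0762 to 0.203.

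*TYR*, tyrosinase, the rate-limiting enzyme of melanin synthesis, was at 318, 296 and 314 CPM in DMSO and at 438, 455 and 440 CPM in FAKi. The FAKi libraries, replicate 1 included, were close to each other and above DMSO, and the log2 fold change was 0.54 ± 0.10 (adjusted p = 0.00619, edgeR with 5 libraries). *DCT*, dopachrome tautomerase, had 0.82 ± 0.17 and *SLC24A5*, a melanosomal exchanger, 0.52. *MITF*, the master regulator of the lineage, was at 198, 216 and 208 CPM in DMSO and at 229, 256 and 315 CPM in FAKi (0.47 ± 0.11, adjusted p = 0.0334). *MLANA* and *PMEL* did not pass the adjusted test, with log2 fold changes of 0.33 and 0.36. *MC1R* and *CAPN3* had -0.13 and -0.17.

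MITF binds the M box, searched as TCACGTG or TCATGTG on both strands. It occurred before 5 of 15 pigment genes (33.3%), which were *GPNMB*, *GPR143*, *SLC24A5*, *TYR* and *TYRP1*, and before 6.54% of all 11120 promoters. A match describes these letters only. The stretches of *TYR* (chr11:89177725-89177874), *TYRP1* (chr9:12693230-12693379) and *SLC24A5* (chr15:48120930-48120989) are shown on the plus strand with the M box, or its reverse complement, in capitals.
TYR: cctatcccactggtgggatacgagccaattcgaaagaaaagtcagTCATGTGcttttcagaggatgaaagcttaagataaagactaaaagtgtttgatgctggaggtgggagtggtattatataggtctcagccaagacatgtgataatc
TYRP1: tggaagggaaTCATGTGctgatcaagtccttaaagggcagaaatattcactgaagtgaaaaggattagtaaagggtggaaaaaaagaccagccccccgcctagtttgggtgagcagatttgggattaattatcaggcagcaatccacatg
SLC24A5: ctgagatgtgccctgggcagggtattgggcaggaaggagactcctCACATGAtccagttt

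**Figure D3:**
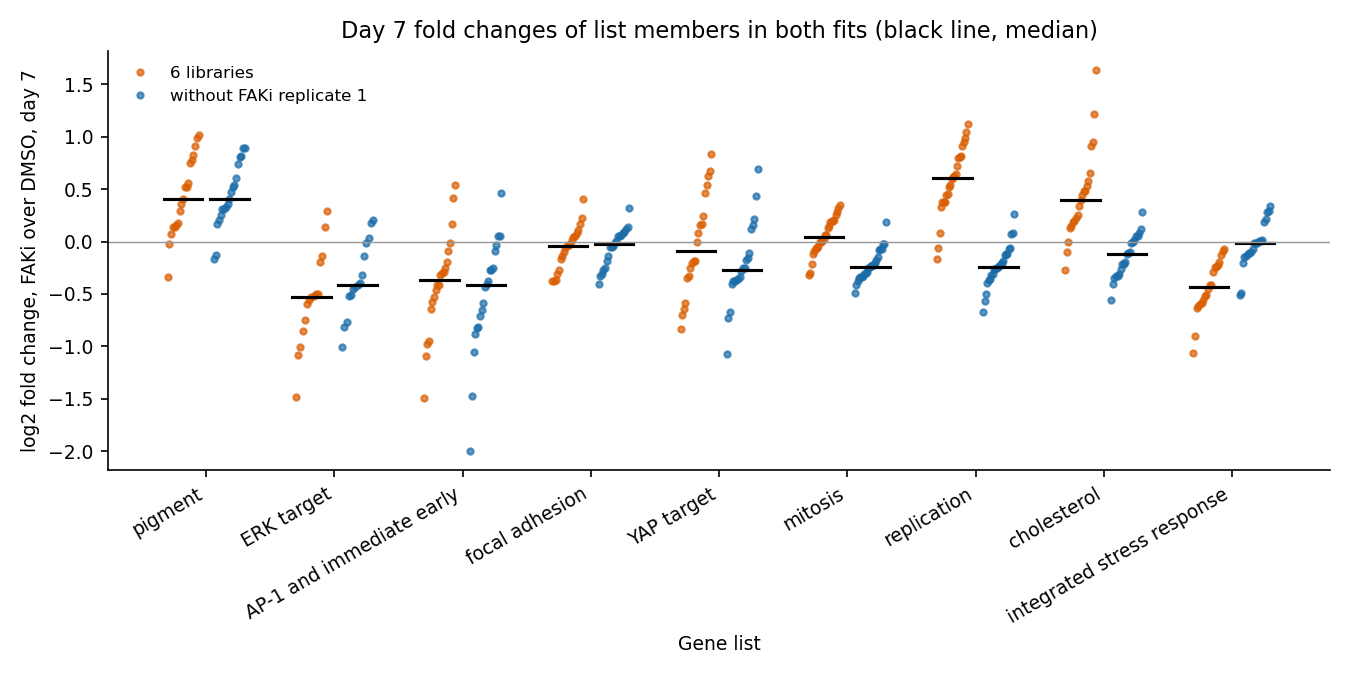
log2 fold change of FAKi over DMSO at day 7 (y axis) of every tested member of 9 gene lists (x axis), in the fit of 6 libraries (orange) and without FAKi replicate 1 (blue). The black line is the list median. The median of pigment genes lies above 0 and that of ERK targets below 0 in both fits, whereas the medians of replication and cholesterol genes lie above 0 with replicate 1 and below 0 without it.

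Few adhesion genes passed the adjusted test. Of 20 FAK and adhesion plaque genes 0 were called, 4 were lower and 0 higher at an unadjusted p under 0.05 with 5 libraries (8.84% of all genes tested were lower at that p), and the median log2 fold change was -0.03. *SRC*, a kinase partner of FAK, was at 56.3, 63.2 and 59.2 CPM in DMSO and at 48.4, 51.0 and 44.6 CPM in FAKi (-0.31 ± 0.12, adjusted p = 0.20, edgeR). *ACTN1*, which crosslinks actin, had -0.41 ± 0.12 (adjusted p = 0.0936). Of 20 YAP/TAZ target genes, 5 were lower at an unadjusted p under 0.05 with 5 libraries and 0 higher, with a median of -0.27. Only *FJX1* was below an adjusted p of 0.05, at 16.3, 16.0 and 17.7 CPM in DMSO and at 10.8, 11.4 and 8.60 CPM in FAKi (-0.73 ± 0.15, adjusted p = 0.0147). Of 14 integrin genes, *ITGA9* alone was called with 5 libraries, 4 were lower at an unadjusted p under 0.05, and the median was -0.21. With 6 libraries 3 adhesion plaque genes, 5 YAP/TAZ targets and 3 integrin genes were lower at that p, and 1 gene of each list was higher. The medians were then -0.04, -0.09 and -0.13. Over all genes tested 4.79% were lower and 3.76% higher at that p with 6 libraries.

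Guidance receptors and their ligands differed in both directions. *PLXNA2*, a semaphorin receptor, was at 47.7, 39.6 and 39.3 CPM in DMSO and at 13.8, 21.2 and 16.5 CPM in FAKi (-1.15 ± 0.15, adjusted p = 0.000263, edgeR with 5 libraries). *PLXNC1*, *SEMA6A* and *SEMA6D* were higher at an adjusted p of 0.05 with 5 libraries, with log2 fold changes of 0.62 ± 0.11, 0.54 ± 0.10 and 0.76 ± 0.15. Among 26 tested semaphorin and plexin genes 4 were higher and 1 lower at that adjusted p, against 0.994% and 1.23% of all genes tested. The fourth higher gene, *PLXNA3*, was called at 1.16, but its replicate 1 value of 0.638 CPM lay below DMSO. *EPHB1* was called higher with 5 libraries beside *EPHA4*, at 0.430, 0.295 and 0.534 CPM in DMSO and at 1.77, 1.53 and 1.38 CPM in FAKi. With all 6 libraries the adjusted p (edgeR) of *PLXNA2*, *PLXNC1*, *SEMA6A*, *SEMA6D* and *EPHB1* were 0.0762 to 0.279.

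Other regulators also differed. *ERBB3*, a receptor tyrosine kinase of the melanocyte lineage, was at 162, 158 and 145 CPM in DMSO and at 65.4, 93.4 and 94.2 CPM in FAKi (-0.72 ± 0.11, adjusted p = 0.00114, edgeR with 5 libraries). *CDKN1C*, a CDK inhibitor, was called lower (-1.24 ± 0.16). *CCND1*, cyclin D1, was at 346, 322 and 320 CPM in DMSO and at 138, 219 and 235 CPM in FAKi (-0.53 ± 0.11, adjusted p = 0.00909). *ID2*, a target of BMP signaling, had 0.92 ± 0.15 and *SNAI2*, a neural crest transcription factor, 0.88 ± 0.11. *SNAI2* was at 89.9, 85.2 and 81.1 CPM in DMSO and at 232, 149 and 165 CPM in FAKi, with every FAKi library above DMSO. *BMF*, a pro-apoptotic BCL2 family gene, had -0.50 ± 0.12, and *NES* and *L1CAM* -0.89 ± 0.12 and -0.86 ± 0.22. In *NES* replicate 1 was at 212 CPM, above the DMSO range of 164 to 192 CPM, while replicates 2 and 3 were at 106 and 88.1 CPM.

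The remaining 11 lists held few genes at an adjusted p of 0.05 with 5 libraries. Matrix (*COL9A3*), glycolysis (*HK1*) and MHC class I (*HLA-C*) had 1 lower gene each, and oxidative phosphorylation (*NDUFA4*) and ribosomal proteins (*RPL27*) 1 higher gene each. ER chaperone, heat shock, hypoxia, histone, interferon and mitochondrial genes had 0. Of 13 genes of the mitochondrial chromosome 8 were higher at an unadjusted p under 0.05, against 5.76% of all genes tested.

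The library labelled FAKi day 7 replicate 1 differed most from its group in stress, replication and sterol genes. Among 10774 genes with at least 5 CPM in FAKi, 317 were over 2-fold higher in it than in both other replicates. Another 206 were over 2-fold lower. In all of these it lay closer to the FAKi day 14 mean than to the mean of replicates 2 and 3. The genes were picked for their distance from replicates 2 and 3, and the likeness to day 14 was known before. This is therefore a description and no test. Replicates 2 and 3 differed over 2-fold in 19 and 6 genes. *ASNS*, asparagine synthetase and a target of the stress factor ATF4, was at 306, 292 and 301 CPM in DMSO and at 12.2, 299.9 and 300.2 CPM in FAKi. *SLC7A11*, the cystine transporter, was at 73.1, 89.1 and 92.3 CPM in DMSO and at 4.03, 96.3 and 118 CPM in FAKi. Replicate 1 alone was far below DMSO in these genes. Of the 50-base stretches of *ASNS* 45.8% occur in other genes' transcripts. *PCNA*, the replication clamp, was at 55.1, 59.6 and 60.7 CPM in DMSO and at 257, 43.7 and 47.5 CPM in FAKi. *HMGCS1*, an enzyme of cholesterol synthesis, was at 42.4, 50.3 and 45.8 CPM in DMSO and at 336, 43.0 and 52.5 CPM in FAKi. In these genes replicate 1 was far above all others. Exons on the opposite strand cover 37.7% of the exon bases of *HMGCS1*.

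The lists showed the same split, as a description of 1 library and with no test. The median log2 ratio of replicate 1 to the mean of replicates 2 and 3 was -2.29 over the 20 integrated stress response genes, 1.66 over the 24 replication genes, 1.09 over the 21 cholesterol genes and 0.75 over the 24 mitosis genes. Over all genes with at least 5 CPM in FAKi it was 0.02. The median log2 fold change of the replication genes was 0.61 with 6 libraries and -0.24 with 5, and that of the cholesterol genes 0.40 and -0.12. With 5 libraries 9 of 24 replication genes and 7 of 24 mitosis genes were lower at an unadjusted p under 0.05. So were 6 of 21 cholesterol genes, and 0 genes of these lists were higher. Of all genes tested 8.84% were lower at that p. In each list 1 gene was below an adjusted p of 0.05 (*UHRF1*, *KIF23* and *SQLE*).

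**Figure D4:**
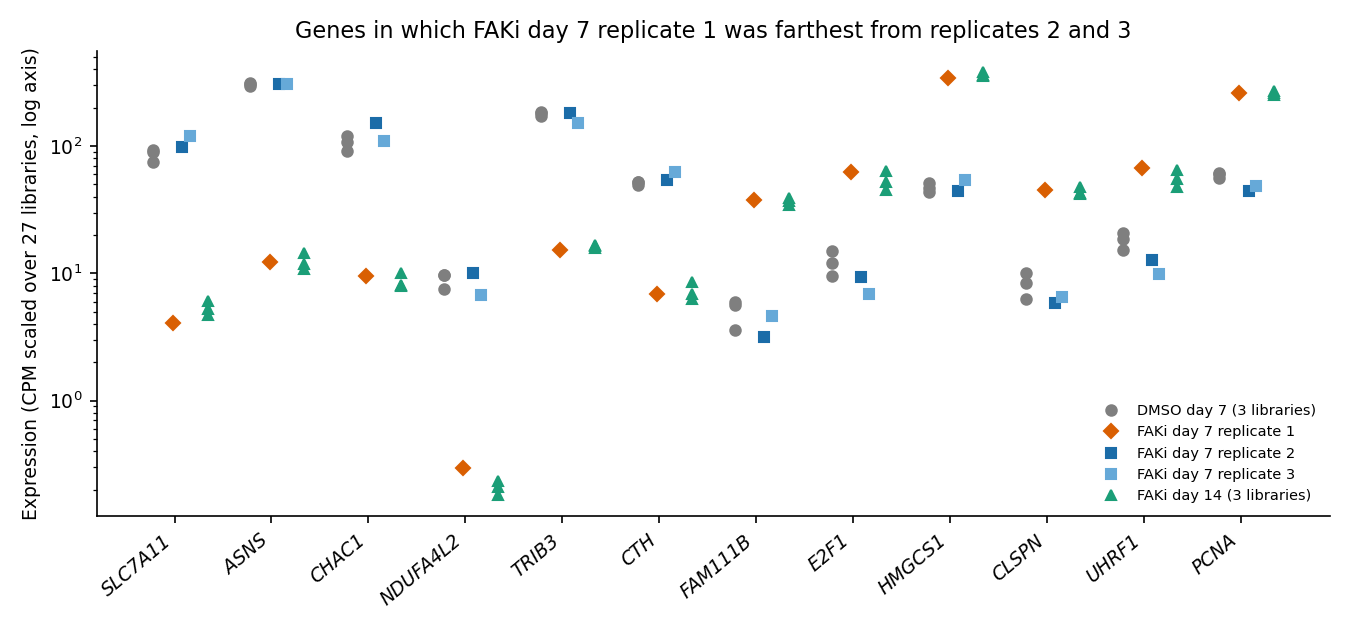
Expression (CPM scaled over all 27 libraries, log y axis) of the 12 genes in which FAKi day 7 replicate 1 (diamonds) was farthest from replicates 2 and 3 (squares), with DMSO day 7 (grey) and FAKi day 14 (triangles). The diamonds lie beside the triangles and the squares beside the grey points.

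Day 7 was then set beside the other days, each compared with its own DMSO libraries. At day 14, 276 protein-coding genes were called (1.90%) and at day 21, 776 (5.38%). Of the 75 genes called at day 7 without replicate 1, 21 were among the day 14 genes (28% of the day 7 list and 7.61% of the day 14 list), 20 in the same direction. At day 21, 31 were shared (41.3% and 3.99%), all in the same direction. At day 3, where the DMSO libraries were 0.405 to 0.640 apart in root mean square difference, 0 genes were called. Over all 75 genes, called at the other day or not, the fold change had the same sign in 59 at day 3, 52 at day 14 and 59 at day 21. The share of all genes tested with the same sign was not computed, so these sign counts are a description only.

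Whether the effect of FAKi differed between days was tested as an interaction of treatment and day. With 12 libraries, 0 genes were called from day 7 to day 14, with 1770 at an unadjusted p under 0.05 and 45 called by DESeq2. Without FAKi day 7 replicate 1, 292 were called (1.96%). *EGR1* was lower in FAKi than in DMSO at day 7 and higher at day 14, with a log2 fold change of 2.41 at day 14. Its change in effect was 3.47 ± 0.31 (adjusted p = 5.86e-08, edgeR without replicate 1). The DMSO mean of *EGR1* was 19.8 CPM at day 7 and 3.52 CPM at day 14. In FAKi it was at 22.2, 10.7 and 8.50 CPM in day 7 replicates 1 to 3 and at a mean of 18.7 CPM at day 14. *SNAI2* moved the other way, from a higher level at day 7 to -0.16 at day 14, a change of -1.04 ± 0.15. *ANXA1* had log2 fold changes of -0.17 at day 3, -0.22 at day 14 and -0.40 at day 21, each smaller in size than at day 7. Its change in effect from day 7 to 14 was 1.15 ± 0.19 (adjusted p = 0.000603). Between these days its mean went from 39.3 to 22.8 CPM in DMSO and from 15.6 to 19.6 CPM in FAKi. *ASNS*, *SLC7A11* and *PSAT1*, an enzyme of serine synthesis, changed by -3.78, -3.87 and -2.35.

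From day 3 to day 7, 0 genes were called with 12 libraries, with 1488 at an unadjusted p under 0.05 and 12 called by DESeq2. Without replicate 1, 28 were called (0.189%). Without DMSO day 3 replicate 1 as well, the count was 1014. The DMSO day 3 libraries lay 0.405, 0.640 and 0.421 apart in root mean square difference. Values at day 3, and changes from it, rest on this divided control group. *KLF5* had a log2 fold change of 0.42 at day 3 and a change in effect of -1.76 ± 0.32 (adjusted p = 0.0408, edgeR). *NRCAM* had -0.21 at day 3 and a change of -1.77 ± 0.33, and *ANXA1* changed by -1.21 ± 0.22. *HLX* had -1.23 ± 0.15 at day 3 (adjusted p = 0.0716) and was called at days 14 and 21 with log2 fold changes of -1.50 and -1.15.

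**Figure D5:**
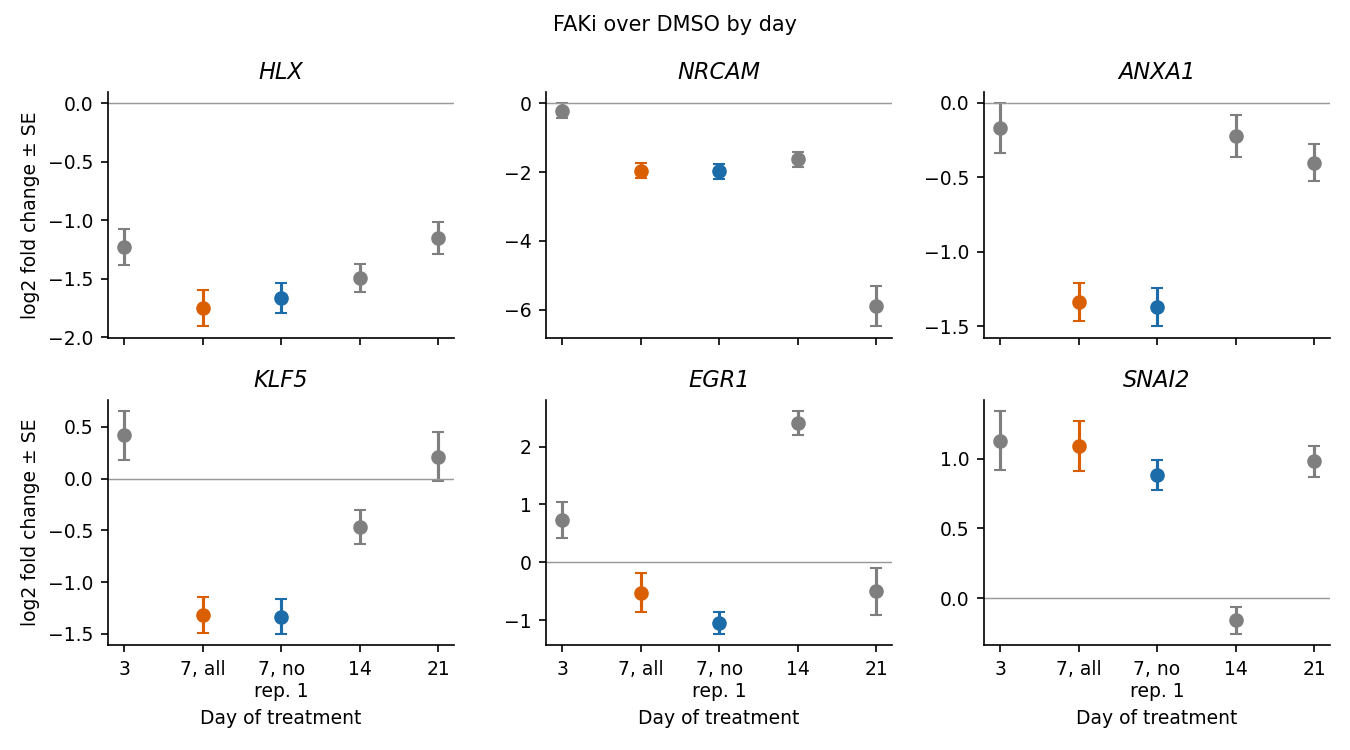
log2 fold change of FAKi over DMSO (y axis, bars are SE) at days 3, 7, 14 and 21 (x axis), with day 7 shown for all libraries (orange) and without FAKi day 7 replicate 1 (blue). *HLX* lies below 0 at every day, *ANXA1* lies farthest below 0 at day 7, and *EGR1* lies below 0 at day 7 and above 0 at day 14.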

How the data were processed

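RNA-seq was measured in 27 libraries, and the 6 of day 7 were compared here. Per the labels and the paper's methods, the authors trimmed reads with Trim Galore, checked them with FastQC 0.11.8, aligned them to hg38 with STAR 2.5.3a and counted the exon reads of 1 transcript for each gene in HOMER (GENCODE 39). The deposited values are raw counts without normalization, and all 27 columns were matched to a sample, with 0 left over. Depth sets the precision of a value, and low CPM values are the least precise.

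Counts were filtered at a total of 20 per gene and TMM-scaled, and edgeR 4.0.16 (R 4.3.3) was run with glmQLFit and glmQLFTest and Benjamini-Hochberg adjustment over all gene types, in place of the DESeq2 the methods name. Standard errors were derived from the F statistic. FAKi day 7 replicate 1 was left out of the second fit and is included in the first. Interactions used both days' libraries. DESeq2 1.42.0, limma 3.58.1 with quality weights, other scalings and filters, each library left out and a replicate block were alternatives, and those for both interactions without replicate 1 were chosen after seeing the data. The pipeline was tested on simulated data. Members and the 36 gene lists, 5 of them cell type markers, were chosen with earlier results of these data known. Genes named are those called with 6 libraries (1 of which is not reported here), the up to 12 highest and lowest called with 5 libraries at 5 CPM or more and without overlap, *PTK2*, *GNAQ*, up to 4 per list with the smallest p, the 6 highest and 6 lowest in replicate 1 relative to replicates 2 and 3, and the 3 with the smallest p in each interaction. Promoter sequences are from RefSeq (GRCh38.p14). The labels do not say what a replicate number shares, so numbers were not taken as pairs. The correlation of same-numbered libraries' deviations from their group means was -0.20, -0.03 and -0.14 for replicates 1 to 3. The FAKi mean includes replicate 1, which stood apart, so these values cannot exclude pairing.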

Additional observations from a re-analysis of the deposited data

Results flagged for a closer look

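Results in which the effect of FAKi at day 7 differed from that at a neighbouring day are listed with their values, all without FAKi day 7 replicate 1 and from edgeR's interaction test. From day 7 to day 14 the effect changed in 292 protein-coding genes. A change in effect can come from either arm, and the DMSO means of *EGR1* and *ANXA1* fell between these days. The log2 change in effect was 3.47 for *EGR1*, -1.04 for *SNAI2*, -1.0015 for *KIF3A*, a kinesin gene, -3.78 for *ASNS*, -3.87 for *SLC7A11*, -2.35 for *PSAT1* and 1.15 for *ANXA1*. With FAKi day 7 replicate 1 included, 0 genes were called by edgeR, with 1770 at an unadjusted p under 0.05 and 45 called by DESeq2.

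From day 3 to day 7 the effect changed in 28 genes, with DMSO day 3 libraries that were themselves 0.405 to 0.640 apart. The log2 change was -1.76 for *KLF5*, -1.77 for *NRCAM*, -1.21 for *ANXA1*, -2.09 for *DHRS2*, -1.51 for *DLGAP5* and -1.56 for *CEP55*. *DLGAP5* and *CEP55* are mitosis genes in which FAKi day 7 replicate 1 was high, at 41.0 and 66.6 CPM, against 14.7 and 19.4 and 23.3 and 25.4 CPM in replicates 2 and 3. With that library included, 0 genes were called by edgeR and 12 by DESeq2, and 1488 had an unadjusted p under 0.05.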

How the results depend on the processing

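The counts of protein-coding genes called with 6 libraries depended on the settings. Against 6 genes, 128 were called with no count filter, 11 with protein-coding genes alone in the fit, 54 with all days in a single fit, 63 with DESeq2, 37 with limma voom and quality weights (where the library labelled FAKi day 7 replicate 1 had a weight of 0.201), and 0 at an adjusted p of at most 0.01. Leaving out each library gave 0 to 75 genes, 75 without FAKi replicate 1, 1 without FAKi replicate 2 (*HLX*) and 0 without FAKi replicate 3 or any DMSO library. Against 75 genes called without FAKi replicate 1, there were 114 with no count filter, 33 with all days in a single fit, 315 by the adjusted p alone and 46 at an adjusted p of at most 0.01. Leaving out a further library gave 45 (without DMSO replicate 1) to 229 (without FAKi replicate 2), and a lone FAKi library was then assumed to vary like DMSO. For the change of effect from day 7 to day 14, against 0 genes, DESeq2 called 45 and leaving out each library gave 0 to 292. Without FAKi day 7 replicate 2 it was 24. From day 3 to day 7, DESeq2 called 12 and leaving out each library gave 0 to 554, the most without DMSO day 3 replicate 1. Without FAKi day 7 replicate 1, DESeq2 called 198 against 28, and leaving out DMSO day 3 replicate 1 as well gave 1014. The cause of these shifts was not tested.

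The replicate numbers were not taken as pairs, but pairing was not excluded. With the replicate block, 0 genes were called with 6 libraries and 938 had an unadjusted p under 0.05, and with 5 libraries 89 were called, 67 of them among the 75. The block gave 2 genes for the change from day 7 to day 14 and 0 for day 3 to day 7, where 1414 had an unadjusted p under 0.05. The fold changes of 22 genes with 6 libraries and 62 with 5 were refitted under scaling, tool, block and left-out libraries, and 0 of 242 and 0 of 619 values reversed their direction. Of these values 35 and 22 lost the call, and 39 and 11 gained it. The genes were chosen for their changes in these same libraries, so a kept direction was likely and is no test of the response.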
